A study of Mus musculus with 10 samples.

Results

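Nerve terminals release transmitter by fusing synaptic vesicles with the plasma membrane, and the genes of that machinery were followed here in the lumbar spinal cord of mice given paclitaxel or vehicle. The members were all genes of the deposited table whose symbols belong to 12 families: synaptotagmins, synapsins, VAMPs, syntaxins, the SNAP symbols Snap23, Snap25, Snap29, Snap47 and Snap91, complexins, SV2 proteins, Rab3 GTPases, Munc13 proteins (Unc13), RIM proteins (Rims), syntaxin-binding proteins (Stxbp), and synaptogyrins. Snap91 shares only the symbol, since it encodes the clathrin adaptor AP180. Members were taken by symbol, in families picked with earlier results of these data known, and 75 of the 24411 listed genes matched. Each group held 5 RNA-seq libraries from mRNA, with 3676259 to 5432072 counts in the paclitaxel libraries and 4585899 to 7791594 in the vehicle libraries. Paclitaxel is a microtubule-stabilising cancer drug that causes a painful peripheral neuropathy, and the lumbar cord receives sensory input from the hind limbs. The labels give no strain, sex, age, dose or time after treatment, and whether each sample came from its own animal is not stated. The p-values therefore measure only the spread between these samples, which may be technical.

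Rab3, synapsin, SV2 and synaptogyrin proteins sit on the vesicle, and RIM and Munc13 proteins dock it and prepare it for fusion at the active zone. Fusion is driven by a bundle of SNARE proteins, with a VAMP on the vesicle and a syntaxin and SNAP-25 on the plasma membrane. A syntaxin-binding protein chaperones the syntaxin, complexin holds the bundle ready, and a synaptotagmin couples fusion to calcium. Relatives of the same proteins move membrane elsewhere, in endosomes, the Golgi apparatus, autophagosomes and secretory cells without synapses. The members were grouped by these roles into 32 genes of the neuronal release core, 15 other synaptotagmins and 28 genes of trafficking outside the synapse.

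The tissue label was checked against markers of cord cells. The summed level of 10 neuron markers was 6424 to 7383 CPM (counts scaled to a common library size) in the paclitaxel libraries and 7154 to 7718 in the vehicle libraries. Oligodendrocyte markers (6 genes) summed to 20779 to 24657 and 21386 to 23793 CPM, and astrocyte markers (6 genes) to 4693 to 5237 and 4506 to 4962 CPM. Skeletal muscle markers (5 genes) summed to at most 2.39 CPM in any library. The 7 markers of sensory ganglion neurons summed to 64.1 to 101 CPM after paclitaxel and 85.7 to 125 after vehicle, with Mrgprd at 0 in all libraries. Prph, a gene also active in motor neurons, made up most of each sum, from 59.4 CPM upward. The other 6 markers summed to 2.64 to 5.64 CPM, and Scn10a was at 0 in 9 of 10 libraries. Paclitaxel replicate 3 stood apart from the others. It was the highest or the lowest of the 10 libraries for 39.7% of all tested genes, against 14.8% to 23.6% for each other library, and for 31.3% of the tested members.

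The release machinery was abundant in the cord, and a few genes carried most of it. The members together took 1.62% to 1.65% of the counts of every library. Snap25, the plasma membrane SNARE cleaved by several botulinum toxins, led with a mean of 2915 CPM over the 10 libraries. It was followed by Vamp1 (1709 CPM), Cplx1 (1425 CPM) and Syt11 (1307 CPM). The 5 members at 1000 CPM or more held 52.2% of the members' summed level, and the first 12 genes held 70.2%. A further 25 members had means from 100 to 1000 CPM, 30 from 10 to 100, 8 from 1 to 10, and 7 were under 1 CPM.

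The 8 members left out of the test were those with too few counts. Syt8 had no count in any library, and a count of 0 allows up to 0.385 to 0.816 CPM, which is what 3 counts are worth in these libraries. Cplx3 and Cplx4, the complexins known from ribbon synapses of the retina, had 5 and 3 counts in all 10 libraries together. Stx19 had 1 count, Syngr4 had 2 and Stx11, a syntaxin of immune cells, had 12. Unc13d, the Munc13 of cytotoxic lymphocytes, had 50 counts and Syt15 had 76. Counting error alone spans most of these values.

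**Figure D1:**
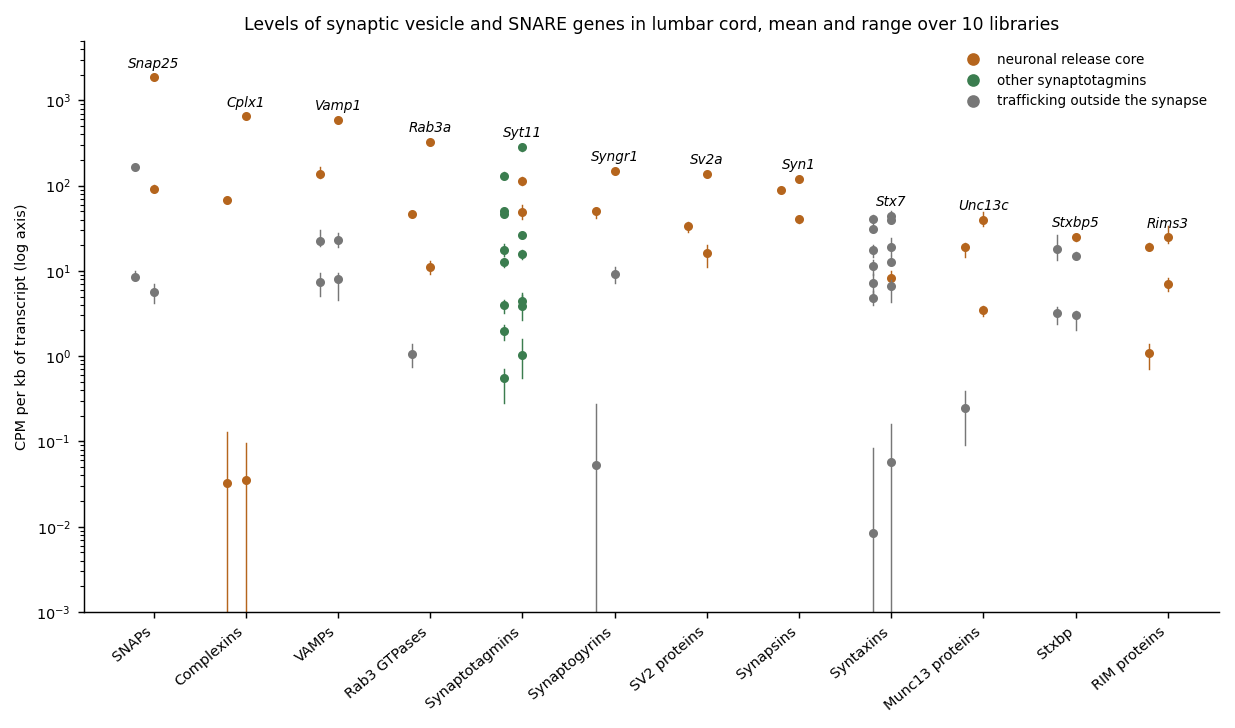
Mean level of each member over the 10 libraries, in CPM per kb of transcript on a log axis, by family, with the range over libraries as a vertical line and the colour giving the role. The highest gene drawn in each family is named. Lines that reach the lower edge belong to members with a library at 0, and Syt8, at 0 throughout, and 2 members not reported here are not drawn. Most families are led by 1 gene, with Snap25 highest at 1862 CPM per kb.

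Levels of different genes can be compared only per length, so CPM was divided by the transcript length in kb. On this scale 1 gene dominated most families. Cplx1 made up 90.6% of the complexin total, Snap25 87.3% of the SNAP symbols and Rab3a 84.5% of the Rab3 GTPases. Vamp1 held 74.8% of the VAMP total, Sv2a 73.4% of SV2 and Syngr1, a vesicle membrane protein, 71.2% of the synaptogyrins. Unc13c, the gene of Munc13-3, held 63.3% of the Munc13 total. In 10 of 10 libraries each of these genes was above the second gene of its family, with ranges that did not overlap.

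Other families were shared more evenly. Syn1 held 48.2% of the synapsin total, with 120 CPM per kb against 89.2 for Syn2 and 40.2 for Syn3. Synaptotagmins were led by Syt11, a synaptotagmin that does not bind calcium, at 37.4% of the family. Syt7 came second at 131 CPM per kb with a transcript of 1.551 kb, above Syt2 in 9 of 10 libraries. The fast calcium sensors Syt2 and Syt1 were at 114 and 48.4 CPM per kb. With the longest coding transcripts Syt7 was at 30.6 and Syt2 at 56.4 CPM per kb, so their order depended on the transcript. Syt1 could not be ordered against Syt3 and Syt4 beyond the spread over libraries. The endosomal syntaxins Stx7 and Stx12 and the plasma membrane syntaxin Stx4a were at 44.5, 39.9 and 41.0 CPM per kb, and Stx7 and Stx4a overlapped in range, as did Stx4a and Stx12. With the longest coding transcript Stx7 was at 32.4 CPM per kb, below Stx4a and Stx12. The transcript chosen for length decided 1 leader. Rims3, a short RIM protein, led its family at 24.8 CPM per kb with a transcript of 0.977 kb, but with the longest coding transcript (6.505 kb) Rims2 led with 60.2% and Rims3 came after Rims1 as well. Every other leader named here stayed first with the longest transcript.

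No member passed the test between paclitaxel and vehicle. Of the 67 members tested, 0 had an adjusted p under 0.05 (edgeR quasi-likelihood test, Benjamini-Hochberg over 13287 genes), where 0% of all tested genes did, and the smallest adjusted p of a member was 0.792. DESeq2 also called 0 members and put 6 at an unadjusted p under 0.05, where 4.30% of all genes in its fit were. The members divided into 34 higher and 33 lower after paclitaxel, with a median log2 fold change of 0.002 against -0.003 over all tested genes. Their median absolute log2 fold change was 0.057, against 0.078 over all genes. The data bounded most changes closely: the 95% interval lay within 1.5-fold in either direction for 65 of 67 members and within 1.2-fold for 38. Most genes were bounded within 1.5-fold too, 11515 of all 13287 tested, and 5530 were within 1.2-fold. The members' summed level was 16369 ± 150 CPM after paclitaxel and 16472 ± 44.7 after vehicle (SD, n = 5 each), with ranges of 16186 to 16598 and 16403 to 16506. In bulk tissue, fewer cells of a type and less RNA per cell cannot be told apart.

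At an unadjusted p under 0.05 there were 6 members, 8.96% of those tested, where 6.07% of all tested genes reached it. Of these, 4 were higher (2.94% of all genes were higher at that p) and 2 were lower (3.12% of all genes). The groups did not overlap for 2 members, both lower after paclitaxel, of which Sv2a is described here. That is 2.99% of the tested members, where 1.09% of all tested genes did not overlap, 0.625% lower and 0.467% higher.

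**Figure D2:**
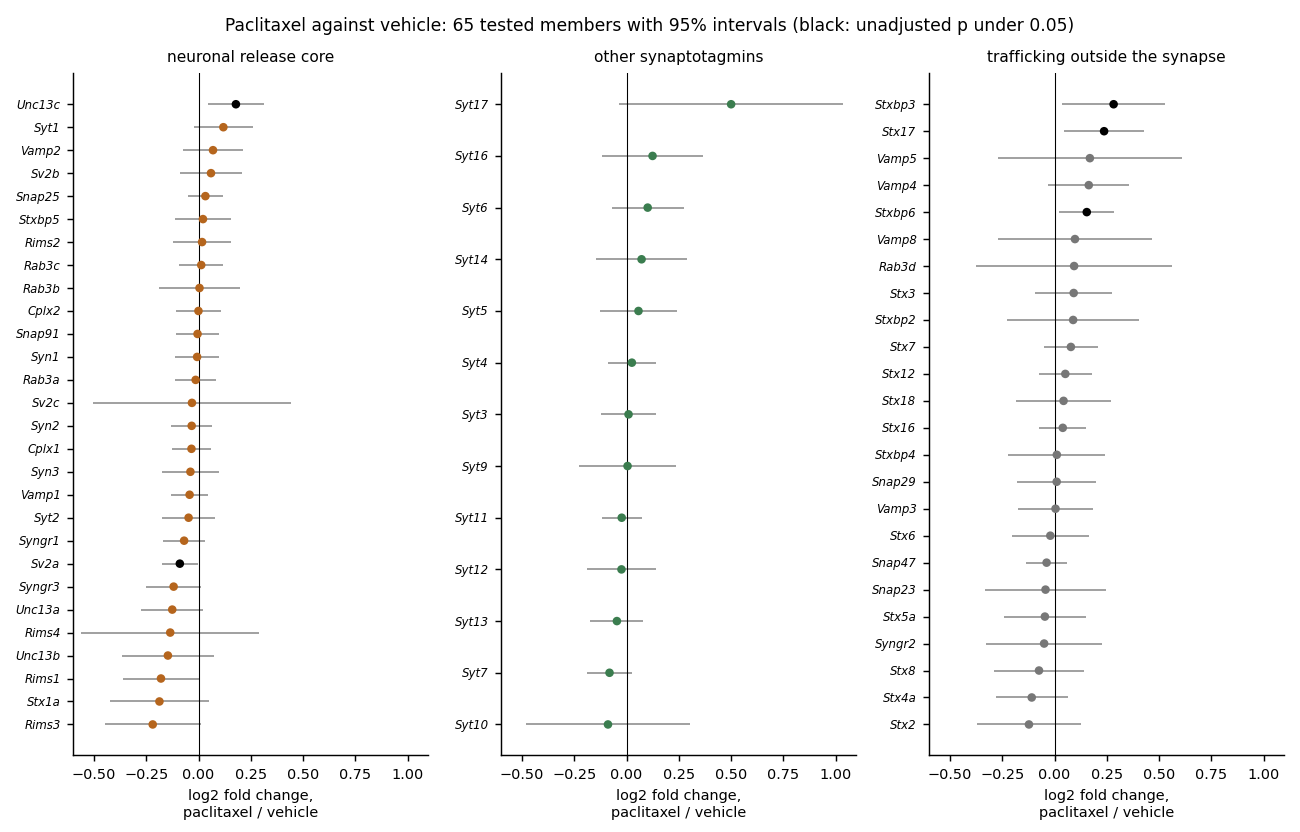
Log2 fold change of paclitaxel over vehicle for 65 of the 67 tested members with 95% intervals, in 3 panels by role, ordered by value. Black points mark the 5 members drawn that had an unadjusted p under 0.05. All 3 panels spread around 0, and the widest intervals belong to low genes such as Syt17 and to Sv2c.

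Sv2a (chromosome 3, 96181227 to 96195183, GRCm38) encodes a vesicle membrane glycoprotein that binds the antiepileptic drug levetiracetam. It stood at 581, 579, 564, 568 and 570 CPM in paclitaxel replicates 1 to 5 and at 604, 613, 618, 615 and 597 CPM in vehicle replicates 1 to 5. Both groups were tight and separate, and the difference was small. The log2 fold change was -0.09 ± 0.04 (SE), with an unadjusted p of 0.0434 and an adjusted p of 0.800 by edgeR. The unadjusted p was under 0.05 in 6 of 19 alternatives. Without paclitaxel replicate 3 it was 0.0533.

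Unc13c (chromosome 9, 73479422 to 74008155) encodes Munc13-3, a factor that primes vesicles for fusion. It was measured at 271, 246, 324, 292 and 262 CPM after paclitaxel and at 263, 239, 225, 243 and 260 CPM after vehicle. The groups overlapped, and paclitaxel replicate 3 was the highest library. The log2 fold change was 0.18 ± 0.07 (SE), with an unadjusted p of 0.0123 and an adjusted p of 0.792 by edgeR. Without paclitaxel replicate 3 the log2 fold change was 0.12. The unadjusted p was under 0.05 in 18 of 19 alternatives, and the lowest adjusted p among them was 0.411.

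Stxbp3 and Stxbp6 are syntaxin-binding genes outside the core. Stxbp3 (chromosome 3, 108793180 to 108840502) encodes Munc18c, the partner of syntaxin-4 in insulin-responsive exocytosis, and its expected count was not whole in 7 of 10 libraries. It was at 42.9, 39.9, 63.3, 47.2 and 44.8 CPM after paclitaxel and at 42.7, 32.7, 37.6, 36.7 and 44.9 CPM after vehicle. The groups overlapped and paclitaxel replicate 3 stood above the other 9 libraries. The log2 fold change of 0.28 ± 0.12 (SE, edgeR unadjusted p 0.0261) was 0.16 without that library, with an unadjusted p of 0.0927. Stxbp6 (chromosome 12, 44852484 to 45075118) encodes amisyn, which carries a VAMP-like SNARE motif and binds plasma membrane syntaxins. It was at 70.8, 68.8, 70.0, 74.8 and 75.8 CPM after paclitaxel and at 64.9, 63.8, 62.7, 69.2 and 63.2 CPM after vehicle. Only vehicle replicate 4 reached the paclitaxel range, and the log2 fold change was 0.15 ± 0.06 (SE, edgeR unadjusted p 0.0243).

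Stx17 (chromosome 4, 48124906 to 48186507) encodes the syntaxin that joins autophagosomes to lysosomes. It was at 49.0, 42.7, 53.7, 39.8 and 41.8 CPM after paclitaxel and at 42.1, 39.8, 31.9, 39.1 and 39.2 CPM after vehicle. The groups overlapped, with paclitaxel replicate 3 highest and vehicle replicate 3 lowest. The log2 fold change was 0.24 ± 0.09 (SE, edgeR unadjusted p 0.0165). Without paclitaxel replicate 3 it was 0.17, with an unadjusted p of 0.0608. Adjusted p was 0.792 for Stx17, Stxbp3 and Stxbp6 alike. Their unadjusted p was under 0.05 in 16, 14 and 17 of 19 alternatives, in that order.

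**Figure D3:**
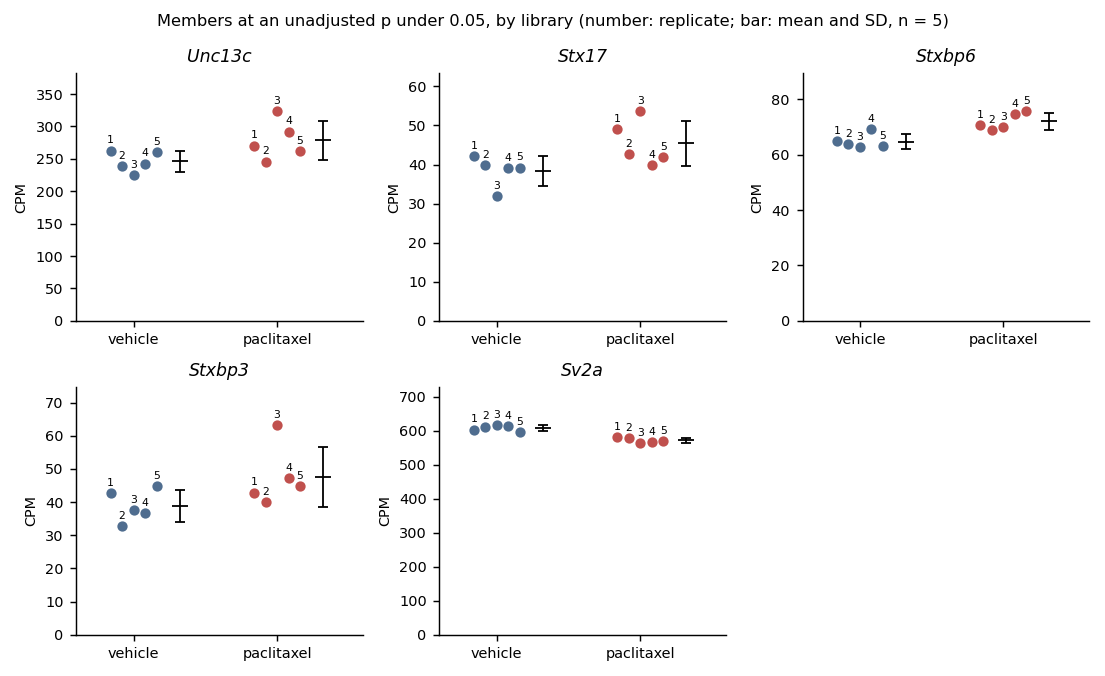
CPM of 5 of the 6 members at an unadjusted p under 0.05 in each library (number: replicate), with the mean and SD of each group (n = 5) beside the points. Axes start at 0. The groups are apart for Sv2a, while paclitaxel replicate 3 is the highest library for Unc13c, Stx17 and Stxbp3.

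Within the release core the balance leaned lower without a gene passing the test. Of 30 tested core genes 10 were higher and 20 lower after paclitaxel, with a median log2 fold change of -0.03, while 49.1% of all tested genes were higher. The core's summed level was 12999 ± 112 CPM after paclitaxel and 13106 ± 19.9 CPM after vehicle (SD, n = 5 each), and the ranges of 12853 to 13165 and 13090 to 13139 overlapped. Neuron markers lay on the same side. Of the 10 markers 8 were lower and 2 higher, with a median log2 fold change of -0.04. Tubb3 and Thy1, both lower, had an unadjusted p under 0.05, where 6.07% of all tested genes did. Map2 and Elavl4 were higher, at 0.09 and 0.10. Astrocyte and oligodendrocyte markers were each higher in 5 of 6, with medians of 0.07 and 0.01. The sum of the neuron markers was lowest in paclitaxel replicate 3, at 6424 CPM, and their median without that library was -0.02, when the core median was also -0.02. The part of the neuron markers in the core's values was not tested.

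No fusion or calcium-sensing gene of the core passed the test, and Snap25, Cplx1 and Cplx2 differed little between the groups. Snap25 was at 2942, 2806, 3000, 2969 and 3021 CPM after paclitaxel and 3051, 2841, 2847, 2801 and 2870 CPM after vehicle, a fold of 1.02 with a 95% interval from 0.964 to 1.09. The groups overlapped, with the highest library in the vehicle group. Cplx1 was at 1408 ± 42.5 and 1442 ± 68.8 CPM, and Cplx2, the other main complexin of the brain, at 333 ± 14.3 and 333 ± 18.5 CPM (SD, n = 5, paclitaxel and vehicle). Stx1a, a plasma membrane SNARE of neurons, was at 16.6 ± 2.30 and 18.9 ± 1.88 CPM (SD, n = 5), and its log2 fold change of -0.19 had an interval from -0.42 to 0.05.

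No vesicle or active zone gene passed the test. The 3 synapsins, which tether the reserve vesicles, were all lower, with log2 fold changes of -0.04 to -0.01. Rab3a, the main vesicle GTPase, was at 464 ± 7.60 CPM after paclitaxel and 468 ± 25.3 after vehicle. Of the RIM genes, scaffolds that hold vesicles near calcium channels, 3 of 4 were lower. Their median absolute log2 fold change was 0.158, against 0.078 over all genes. The 3 tested Munc13 genes had a median absolute value of 0.147 but did not share a direction. Unc13a was at -0.13, Unc13b at -0.15 and Unc13c at 0.18. Paclitaxel replicate 3 was the lowest library for Unc13a and the highest for Unc13c. Rims1 was at 41.3 ± 4.38 and 46.9 ± 4.40 CPM and Rims3 at 22.3 ± 1.23 and 26.2 ± 4.66 CPM, with log2 fold changes of -0.18 ± 0.09 and -0.22 ± 0.11 (SE). Without vehicle replicate 2 the Rims3 value was -0.11. The 3 tested synaptogyrins, membrane proteins of the vesicle, were all lower, with Syngr1 at -0.07 and Syngr3 at -0.12. Rims1 and Syngr3 are named after their values were seen. The RIM and Munc13 medians of absolute change, the largest of any family, were likewise picked after the values were seen.

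Outside the core the balance leaned the other way, again without a call. Trafficking genes were higher in 16 of 24, with a median log2 fold change of 0.04. The 3 at an unadjusted p under 0.05, all higher, were the 3 described above. They were 12.5% of those tested, where 6.07% of all tested genes reached that p and 2.94% were higher at it. Without paclitaxel replicate 3, Stx17 and Stxbp3 were not among them. Other synaptotagmins were higher in 8 of 13, with a median of 0.01 and 0 at that p. The largest value of any member, 0.50 for Syt17, belonged to a gene at 2.83 CPM with a 95% interval from -0.04 to 1.04. By family, all 6 Stxbp genes and 5 of 6 tested VAMPs were higher, with medians of 0.05 and 0.08, and the syntaxins divided into 6 higher and 7 lower. The other genes of the release pathway, taken from a list of 49 vesicle, transporter, active zone and fusion genes outside the 12 families, gave 24 higher and 24 lower among 48 tested, a median of -0.002 and 0 calls.

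In that list 6 genes (12.5% of those tested, against 6.07% of all tested genes) had an unadjusted p under 0.05, 4 higher and 2 lower. Slc32a1, the vesicular transporter for GABA and glycine, had the lowest p. It was at 256, 280, 219, 248 and 238 CPM after paclitaxel and 257, 300, 295, 284 and 285 CPM after vehicle. The groups overlapped through vehicle replicate 1, and the log2 fold change was -0.19 ± 0.06 (SE, edgeR unadjusted p 0.00406, adjusted p 0.792). Synpr, a synaptophysin relative, was at 0.26 ± 0.10, Scamp1, a carrier membrane protein, at 0.13 ± 0.05 and Ppfia3, an active zone liprin, at -0.15 ± 0.06 on the log2 scale (SE). Without paclitaxel replicate 3 Synpr was at 0.16. The cortical glutamate transporter gene Slc17a7 was too low to test, at 0.367 to 1.36 CPM in the paclitaxel libraries and 0.128 to 4.52 in the vehicle libraries.

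Several core proteins come as paralogs that different neurons use, and their ratio within a library is free of depth and of any scaling. Because expected counts divide reads that match several genes, the whole transcripts of each pair were searched for the longest run they share. The runs were 15 to 32 bases long and coding in both genes. The read length is not given in the sources used here, so whether a read could fall wholly within a run was not determined. The sequences of 2 pairs are shown for how far paralogs differ around their longest shared run, which is in capitals, with 24 coding bases on each side. They are coding strand from the gene's matched GENCODE M21 transcript (GRCm38), 5′ to 3′, with positions counted from the first base of the coding sequence.
Vamp1 (chromosome 6, coding bases 103 to 168): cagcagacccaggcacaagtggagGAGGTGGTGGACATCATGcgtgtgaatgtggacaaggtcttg
Vamp2 (chromosome 11, coding bases 97 to 162): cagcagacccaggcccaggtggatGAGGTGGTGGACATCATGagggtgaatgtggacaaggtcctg
Cplx1 (chromosome 5, coding bases 4 to 83): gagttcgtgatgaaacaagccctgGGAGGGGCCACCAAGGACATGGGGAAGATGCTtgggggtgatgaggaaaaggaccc
Cplx2 (chromosome 13, coding bases 4 to 83): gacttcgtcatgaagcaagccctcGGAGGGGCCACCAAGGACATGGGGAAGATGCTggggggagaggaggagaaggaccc
The shared run was 18 bases in the VAMP pair and 32 in the complexin pair. All deposited values of these 4 genes were whole numbers.

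Vamp1 was above Vamp2 per kb in every library, and Syt2 was above Syt1 in every library with the matched transcripts. Per kb, Vamp1 was 4.27 times Vamp2 (3.35 to 4.85 over libraries) and Syt2 was 2.36 times Syt1 (1.81 to 2.75), although the second ratio was 1.17 with the longest coding transcripts. Vamp1 and Syt2 are known as the isoforms of fast-firing neurons of the cord and brainstem, while Vamp2 and Syt1 prevail in the forebrain. Cplx1 was 9.63 times Cplx2, Sv2a 4.08 times Sv2b and Syn1 1.35 times Syn2, all per kb.

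None of the 5 ratios reported differed between the groups beyond the spread of the libraries. The log2 ratio of Vamp1 to Vamp2 counts was 2.58, 2.47, 2.13, 2.48 and 2.50 after paclitaxel, and its mean after vehicle was 2.55 ± 0.15 (SD, n = 5). Paclitaxel replicate 3 was lowest, and the mean difference was -0.11 (exact permutation test over 252 assignments, two-sided, p = 0.341, adjusted over the 6 pairs compared p = 0.683). For Syt2 to Syt1 the difference was -0.17 (exact permutation p = 0.222, adjusted p = 0.667), and for Sv2b to Sv2a it was 0.14 (exact permutation p = 0.151, adjusted p = 0.667). The ratios of Cplx1 to Cplx2 and Syn2 to Syn1 differed by -0.03 and -0.02, with exact permutation p of 0.524 and 0.714. The smallest p this design can give is 0.00794.

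**Figure D4:**
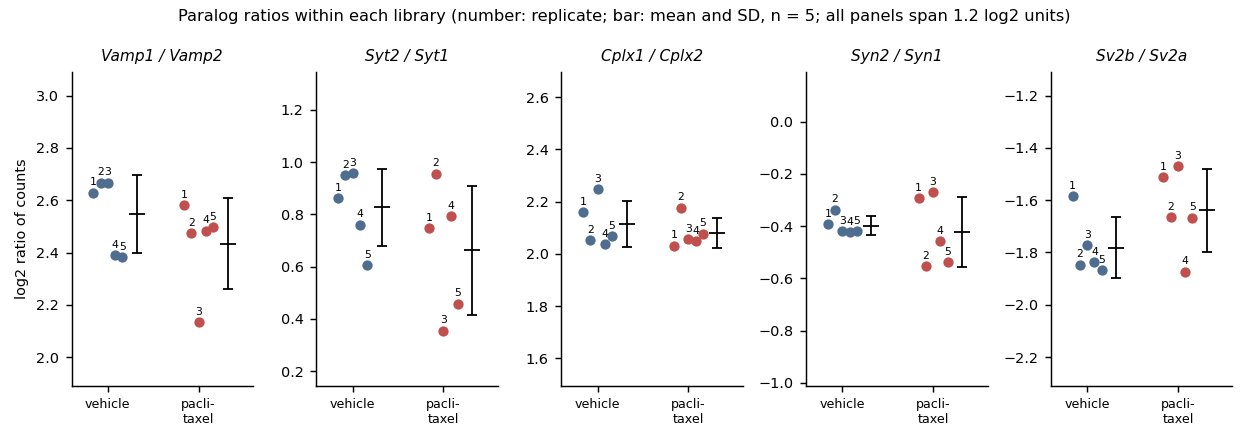
Log2 ratio of counts of 5 paralog pairs within each library (number: replicate), with group mean and SD (n = 5). All panels span the same range of log2 units. The groups overlap in every panel, and paclitaxel replicate 3 lies lowest for Vamp1 over Vamp2 and for Syt2 over Syt1.

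The members' spread between libraries was compared with that of other genes. Over the 60 members at 10 CPM or more, the median within-group SD of log2 CPM was 0.113, against 0.133 over 10321 tested genes at that level, and 25 of the 60 lay above that gene median. The comparison was not matched on level. Sv2a had the smallest SD of all 10321 genes, 0.0195, which was under the 0.0266 that counting error alone would give. Stx16, a syntaxin of the Golgi apparatus, ranked 24 from the lowest. These genes were singled out after their values were seen, and high counts lower the SD.

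Sv2c had the highest SD of the members, 0.332, higher than in all but 2.17% of those genes and well above its counting error of 0.0546. SV2C is a vesicle protein that botulinum toxin A binds, and it is known from a limited set of neurons. Its level was 171, 184, 144, 118 and 102 CPM after paclitaxel and 168, 180, 129, 154 and 106 CPM after vehicle. Replicate 2 was highest and replicate 5 lowest in both groups, and the groups covered nearly the same range. The labels do not tie same-numbered replicates together, and Sv2c was singled out after its values were seen.

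**Figure D5:**
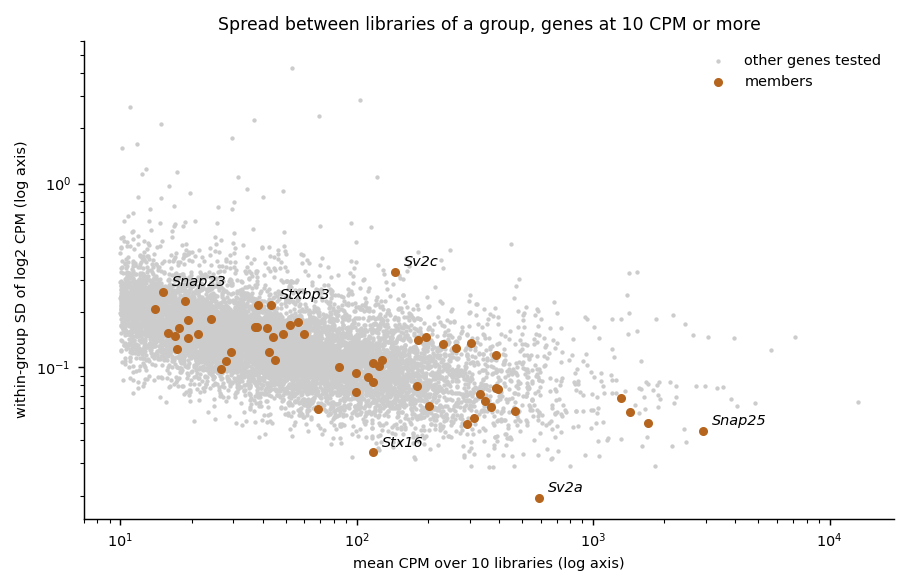
Within-group SD of log2 CPM against mean CPM over 10 libraries, both on log axes, for tested genes at 10 CPM or more (grey) and members (brown). Members follow the fall of SD with level, with Sv2a at the lower edge and Sv2c, at 0.332, above the other members.

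Promoters were examined for what the members share beyond their names. RefSeq promoters (GRCm38.p6, 250 bases before to 50 after the gene's start) were at hand for 57 of 75 members. A gene with several promoters counted once, with a motif in any of them. The GC box GGGCGGG, searched on both strands like all motifs here, was in 34 of 57 members (59.6%). It was in 52.5% of the tested genes with a promoter and in 27.9% of all 27025 genes with a promoter. Members and tested genes had the same median of 22 CpG dinucleotides per promoter. RE1 is the site through which the repressor REST keeps neuronal genes silent outside neurons. Its left part TTCAGCACC was in Syn1 and Unc13a only, 3.51% of members against 0.594% of tested genes and 0.433% of all genes. Its right part GGACAGCGC was in Unc13a only, 1.75% of members against 0.822% of tested genes and 0.477% of all genes. The cyclic AMP response element TGACGTCA was in Syn1 and Stxbp3, 3.51% of members against 3.64% of tested genes and 2.03% of all genes. The RE1 parts and response elements overlapped no other motif searched, and overlap of GC boxes with each other was not examined.

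The stretches of Syn1 and Unc13a that hold these letters are shown, with motifs in capitals. Among the 57 members with a promoter, these were the only ones with an exact match to either RE1 part. Matches with mismatched letters were not searched, and the spacing between the parts was not examined. Both genes lie on the minus strand, and the sequences read along the gene. Bases are counted from the start used for the promoter. For Unc13a that start lies inside the gene's coordinates rather than at their end, 71671774.
Syn1 (chrX:20921069-20921168, bases -250 to -151 from the start): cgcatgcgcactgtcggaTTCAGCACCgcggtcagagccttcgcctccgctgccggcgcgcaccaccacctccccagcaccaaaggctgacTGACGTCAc
Unc13a (chr8:71671727-71671752, bases 6 to 31 of the gene): GCGCTGTCCgcgcccccGGTGCTGAA
In Syn1 the RE1 part is read along the gene and is followed by the response element. In Unc13a both parts lie on the opposite strand, so the capitals are their reverse complements. Syn1 was at 388 ± 26.8 and 390 ± 11.5 CPM and Unc13a at 188 ± 23.6 and 205 ± 9.56 CPM after paclitaxel and vehicle (SD, n = 5), and neither had an unadjusted p under 0.05 by edgeR. A match describes letters only, and binding was not measured.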

How the data were processed

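Values of the deposited table are expected counts from RSEM, 1 per gene and library, with no scaling to depth. STAR, RSEM and edgeR 4.2.0 with build mm10 are named in the submitters' processing notes; STAR and RSEM versions, annotation, strand setting and read length remain not given in the sources used here. Of the deposited expected counts 5.04% were not whole (5 members: Stxbp3, Syt11, Syt12, Syt6 and Stx18), and all were rounded. Genes were filtered with filterByExpr (minimum count 10, minimum total 15), scaled by TMM and tested without covariates by edgeR's quasi-likelihood test (edgeR 4.0.16, R 4.3.3), two-sided, with Benjamini-Hochberg adjustment over 13287 genes. The common biological coefficient of variation was 8.23%. CPM uses TMM-scaled library sizes. Depth sets the precision: 3 counts are worth 0.385 to 0.816 CPM.

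The members and lists were chosen with earlier results of these data known. Named genes were the highest of each family per kb, members at an unadjusted p under 0.05, the 6 paralog pairs and the 4 other release genes of lowest p. Alternatives were other scalings and filters, DESeq2 1.42.0, limma-voom (limma 3.58.1), a replicate block and leaving out libraries; lengths from the longest coding transcript were added after seeing the data. Lengths are of GENCODE M21 transcripts matched by RefSeq ID for 75 of 75 members, and coordinates are RefSeq's on GRCm38.p6, the assembly mm10 names. Ratios add a pseudocount of 1 to each count. The results of 2 members, and of 1 pair, are not reported here, though counts over the members include them. The edgeR and permutation code was tested on simulated data.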

Additional observations from a re-analysis of the deposited data

Results flagged for a closer look

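In 66 groups of 5 libraries (the named genes, the paralog ratios and the members' summed level, in each treatment), 1 library lay far from the other 4 in 5 of them, by Dixon's 95% limit of 0.71 for the gap over the range. Chance gives about 1 in 20 such groups. Vehicle replicate 1 was highest for Snap25, at 3051 CPM with the next vehicle library at 2870, and lowest for Syngr1, at 350 CPM with the next at 381. Paclitaxel replicate 3 was highest for Synpr, at 47.8 CPM with the next at 37.4, and for Vamp2, at 364 CPM with the next at 309. The same library was lowest for the log2 ratio of Vamp1 to Vamp2, at 2.13 with the next at 2.47, which shares the Vamp2 counts.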

How the results depend on the processing

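No alternative called a member. Over all genes DESeq2 called 1 gene (Klf4) and the replicate block called 1 (Fos), where the reported fit called 0. Members at an unadjusted p under 0.05 numbered 4 to 8 with 1 library left out, where 3.82% to 9.78% of all genes reached it (lowest without vehicle replicate 3, highest without vehicle replicate 1), and 3 without vehicle replicate 4 and paclitaxel replicate 3 together, where 3.78% did. Without paclitaxel replicate 3, and likewise without vehicle replicate 3, Stx17, Stxbp3 and Sv2a were no longer among them. After each gene's group mean was subtracted from its log CPM, same-numbered samples correlated from -0.10 to 0.14. Paclitaxel replicates 2 and 5 and vehicle replicates 1, 2 and 5 correlated best with their own number in the other group. The other samples did not, and whether numbers pair the samples cannot be told from these values. With the replicate block 7 members had an unadjusted p under 0.05, against 6.31% of all genes. Values near 0 changed sign. Cplx2, at -0.0008, was 0.0040 with DESeq2 size factors, 0.0048 with upper-quartile scaling, 0.0019 with library totals, 0.0013 with a filter of 1 CPM, 0.0031 with DESeq2, 0.00012 with the block and 0.00069 without both libraries. Without both libraries Syn1 was 0.036 and Syt11 0.014. With 1 library left out the log2 fold changes ranged from -0.020 to 0.029 for Cplx2, -0.034 to 0.0055 for Rab3a, -0.040 to 0.028 for Syn1 and -0.040 to 0.015 for Syt11. The ratio difference of Syn2 to Syn1 ranged from -0.063 to 0.0088. The cause of these changes was not tested. With longest transcripts the level of Syt2 was 1.17 times that of Syt1 and that of Syn1 1.57 times that of Syn2. Depth limits the members under 10 CPM most, and 2 of 67 intervals reach past 1.5-fold.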
